A study of Mus musculus with 6 samples.

Results

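Dendritic cells are recognised by a small set of genes, and 9 of them were followed here in cells that had been sorted as monocytes: Zbtb46, Flt3, Xcr1, Clec9a, Cd209a, Dpp4, Fscn1, Tcf4 and Id2. They were chosen by name, and a gene was read from the probe set that the platform annotation ties to its symbol alone, taking the probe set with the highest mean over the 6 arrays where there were several. Such a probe set was found for 8 of the 9 genes, out of 22180 genes that have one in the whole series. Clec9a, the cDC1 receptor for actin exposed by dead cells, is listed only on a probe set that names a further gene as well, so no value is given for it. All 8 others passed the filter on dim genes and are among the 18458 genes tested.

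Each sample is RNA of sorted mouse cells measured on 1 Mouse Gene 2.0 ST array, 3 from spleen and 3 from tumor. Every mouse had been given Th9 cells, a helper T cell type, 10 days before its tissue was taken, so both groups share that treatment and no untreated mice are part of the comparison. The sort kept CD11b+ cells high for Ly6C and negative for CD11c, the labels of both groups call them monocytes, and neither the mouse strain nor the kind of tumor is given in the sources used here. The labels do not state that the samples of a group are from different mice. The p-values therefore speak only of the spread among these samples, which may be of technical origin. A level is given as log2(intensity + 1), and a difference as tumor minus spleen on that scale with its standard error. It was called at an adjusted p under 0.05 in limma with Benjamini-Hochberg adjustment over all genes tested.

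Conventional dendritic cells arise under FLT3 ligand from precursors that carry its receptor, and the transcription factor ZBTB46 sets them apart from monocytes and macrophages. They divide into cDC1, which carry XCR1 and CLEC9A and present the antigens of dead cells to CD8 T cells, and cDC2, which express IRF4 and, in part, CD209A. Plasmacytoid dendritic cells, or pDC, which are specialised in making type I interferon, are instead kept by the E protein TCF4, which ID2 opposes. Monocytes can also take on dendritic features under inflammation, with CD209A as a marker of such cells, and mature conventional dendritic cells carry fascin, encoded by Fscn1.

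The transcripts behind the sort were read as a check of the labels. Itgax codes for CD11c, the protein by which cells were sorted out, and lay between 11.06 and 11.30 on the spleen arrays and between 10.16 and 10.50 on the tumor arrays, above at least 96.8% of the genes on each array. Itgam, which encodes CD11b, lay at 10.04 ± 0.15 (SD, n = 3) in spleen and 9.19 ± 0.22 in tumor, and Ly6c2 at 6.81 ± 0.58 and 8.29 ± 0.40. Ly6c1 lay between 3.21 and 4.44, and Ccr2, the chemokine receptor of classical monocytes, at 6.86 ± 0.09 in spleen and 5.93 ± 0.15 in tumor. Transcripts for CD11b and for the excluded CD11c were thus both high in both groups, while Ly6c1 was dim.

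Markers of cells other than monocytes and dendritic cells were read in the same way. The mean level over the list was at most 5.32 on any array for T cells (9 of 10 genes with a probe set), 4.80 for B cells (7 of 8), 4.80 for NK cells (9 of 9), 5.29 for eosinophils (6 of 6) and 4.95 for melanocytes (7 of 7). For neutrophils it lay higher, between 6.58 and 6.88 in spleen and between 6.41 and 6.58 in tumor (13 of 13). It lay between 5.82 and 5.94 in spleen and between 5.98 and 6.22 in tumor for fibroblasts and endothelium (10 of 10), and between 5.11 and 5.44 and between 5.47 and 5.73 for mast cells and basophils (8 of 8). Single genes of these lists were bright or were called. Cpa3, the mast cell carboxypeptidase, lay between 9.63 and 10.32 on all 6 arrays (difference -0.06 ± 0.22, adjusted p = 0.959). Hdc, which makes histamine, rose by 3.38 ± 0.17 (adjusted p = 8e-06) and Kdr, the VEGF receptor of endothelium, by 2.88 ± 0.23 (adjusted p = 1.13e-04). The collagenase gene Mmp8 fell by 0.68 ± 0.16 (adjusted p = 0.034, lost with any array but tumor 3 left out, up to 0.141), the gelatinase gene Mmp9 by 1.12 ± 0.17 (adjusted p = 0.00451) and the T cell receptor chain gene Cd3g by 1.36 ± 0.18 (adjusted p = 0.00219). The part of such cells in the differences of the dendritic cell genes was not tested.

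To judge how dim a probe set is, 1394 receptor genes of smell and pheromone sensing, not expected in blood cells, served as a yardstick. Their median level lay between 3.0 and 3.12 and their 95th percentile between 4.56 and 4.88 on the 6 arrays. Of the 8 genes, 7 lay above that 95th percentile on every array, and Xcr1 did so only on spleen array 3. Probe sets differ in how strongly they bind, so a place on the array is a description and no measure of which gene is more expressed.

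**Figure D1:**
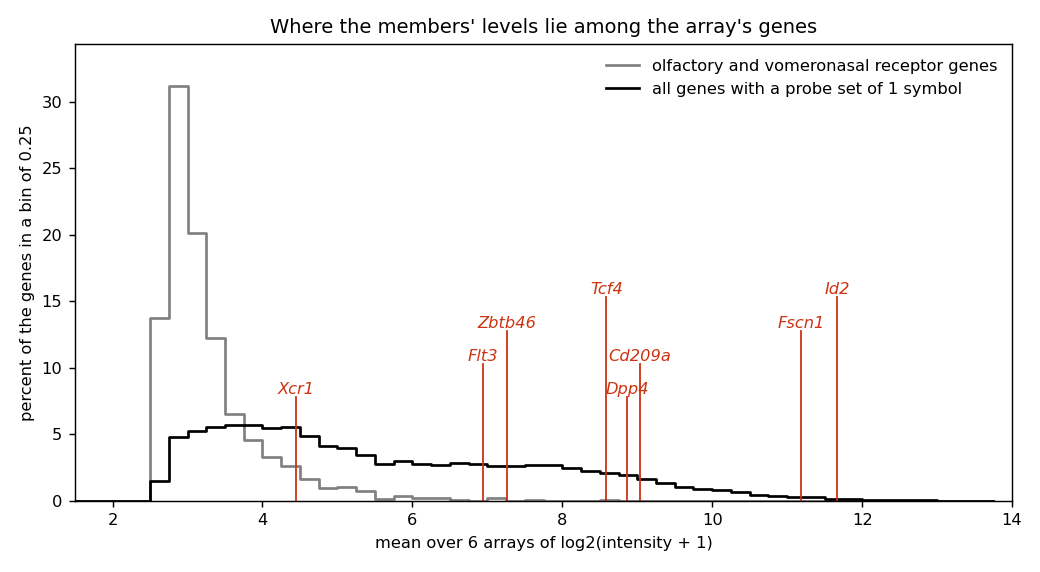
The horizontal axis is the mean of log2(intensity + 1) over 6 arrays, and the vertical axis the percent of genes in each bin of 0.25, for 1394 receptor genes of smell and pheromone sensing (grey) and for all 22180 genes (black). Red lines mark the 8 dendritic cell identity genes: Xcr1 lies within the upper tail of the grey distribution, and Fscn1 and Id2 lie near the right end of the black one.

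Of the 8 genes, 3 rose on the tumor arrays, Tcf4, Zbtb46 and Dpp4, and 0 fell, where 10.6% of all genes tested were called, 5.73% as higher and 4.85% as lower in tumor. A further 5 were not called: Fscn1, Flt3, Id2, Xcr1 and Cd209a. At an unadjusted p under 0.05 limma gave 4 higher and 0 lower. The share of all genes at that threshold was not counted, here or for the gene lists below. Groups did not overlap for 4 of the 8 genes (Fscn1 besides the 3 called), each with the tumor arrays above, against 25.4% of all genes tested, or 9.81% with tumor above. The median difference of the 8 was 0.27, against -0.05 over all genes tested. Across genes the arrays numbered 3 deviated together most (correlation 0.71). Numbers 1 and 2 were not told apart: spleen 1 correlated at 0.36 with tumor 1 and at 0.46 with tumor 2. The number was used as a block because of these values and not of the labels, so calls with it are no independent support. With the block 5 of the 8 were called, 4 higher and 1, Cd209a, lower, where 29.0% of all genes tested were (11.7% higher and 17.3% lower). Among the arrays numbered 1 and 2 alone 4 were called, all higher, where 15.9% of all genes were. The count fell to 1, Tcf4, without spleen 1 or without spleen 2, while that among all genes went from 1952 to 1147 and 1031.

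**Figure D2:**
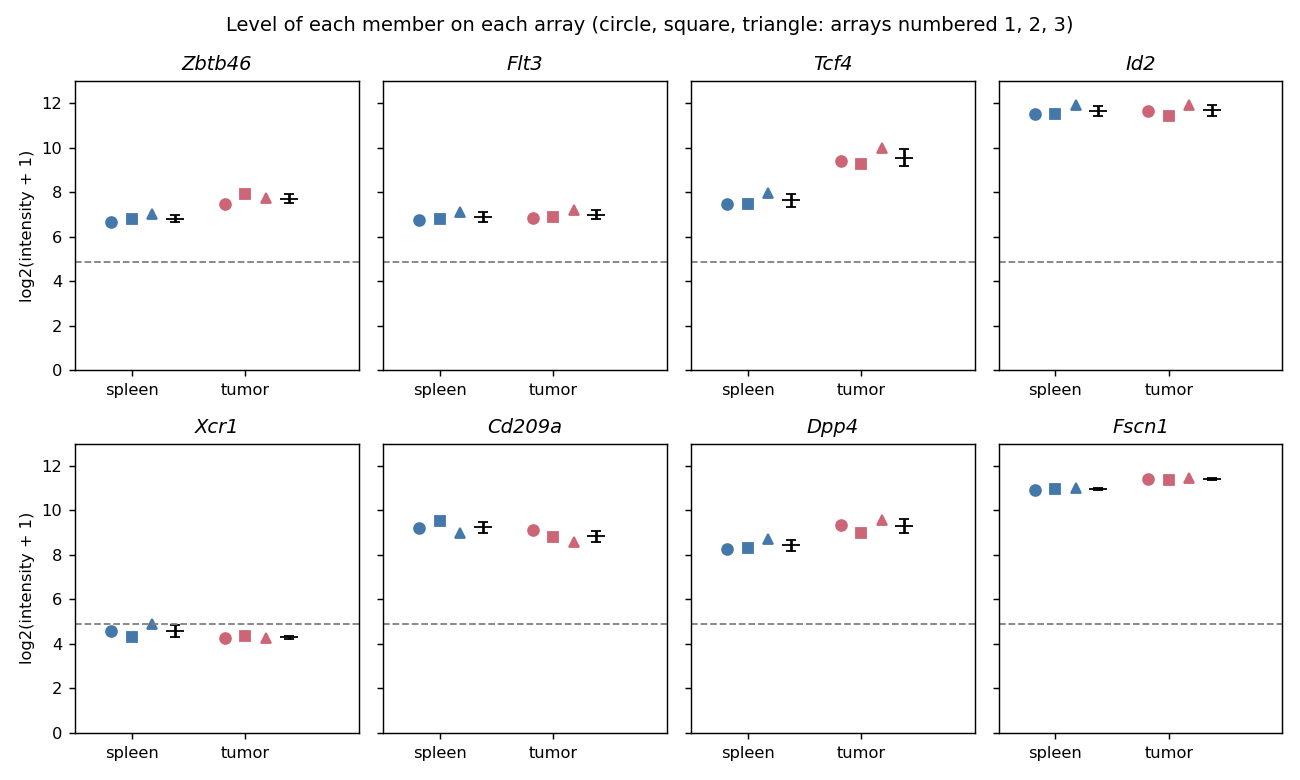
Each panel plots 1 gene's log2(intensity + 1) on the 3 spleen (blue) and 3 tumor (red) arrays, with the mean and SD of each group (n = 3) in black; the dashed line, at 4.88, is the highest 95th percentile of receptor genes of smell and pheromone sensing on any array. Tcf4 is higher on all 3 tumor arrays (9.26 to 9.98) than on the spleen arrays (7.47 to 7.95), Zbtb46 and Dpp4 are also apart, and Flt3 and Id2 overlap.

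Tcf4, the E protein that plasmacytoid dendritic cells depend on, rose the most of the 8 genes. Its level was 7.47, 7.47 and 7.95 on spleen arrays 1 to 3 and 9.39, 9.26 and 9.98 on tumor arrays 1 to 3. Every tumor value lay above every spleen value, and array 3 was the highest of each group. The difference was 1.92 ± 0.23 (3.79-fold, limma adjusted p = 0.00115; probe set 17351594, Entrez gene 21413), and it was called with each array left out in turn (adjusted p up to 0.00734). Its place on the array moved from above 78.4 to 79.9% of genes in spleen to above 93.6 to 95.2% in tumor. In sorted bulk cells, more cells that express a gene and more RNA per cell cannot be told apart.

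The other genes by which plasmacytoid cells are known did not all go with Tcf4. Of 19 tested genes of the pDC list 4 rose, Tcf4 among them, 1 fell and 14 were not called. That is 26.3% called, against 10.6% of all genes tested, with a median difference of 0.10. Adding the sample number as a block gave 7 higher and 2 lower for the pDC list, where 29.0% of all genes were called. Irf7, the factor that amplifies interferon production (4.42 ± 0.16, adjusted p = 2.21e-06), the RNA sensor Tlr7 (1.59 ± 0.16) and the tetherin gene Bst2 (1.38 ± 0.20) rose, and all of these are also known as interferon-inducible. Spib, an ETS factor of pDC and B cells, was 6.09, 6.30 and 6.62 in spleen and 5.35, 5.23 and 5.40 in tumor, so that the groups did not overlap. Spib thus fell by 1.01 ± 0.17 (adjusted p = 0.00686), opposite to Tcf4. Siglech, the surface lectin that defines mouse pDC, lay between 4.20 and 5.04 in spleen and between 4.26 and 5.28 in tumor (difference 0.10 ± 0.32, adjusted p = 0.951). Ccr9, a homing receptor of pDC, lay between 3.88 and 4.21 on all 6 arrays, and Bcl11a, a factor that acts with TCF4 in pDC, stood at -0.56 ± 0.20 (adjusted p = 0.13, and 0.00821 with the block). Ccr9 lay below the 95th percentile of the receptor genes of smell on every array, and Siglech on all but array 3 of each group, where it lay above. Over the whole pDC list, 21 of 23 genes with a probe set, the mean level lay between 5.77 and 6.07 in spleen and between 6.22 and 6.55 in tumor, and its part in the Tcf4 difference was not tested.

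Id2, the inhibitor that binds E proteins such as TCF4 and keeps them off DNA, was among the brightest probe sets on every array and was not called between the groups. Its level was 11.54, 11.53 and 11.91 in spleen and 11.66, 11.45 and 11.93 in tumor, above at least 99.3% of the genes. The groups overlapped throughout, with array 3 highest in both. The difference was 0.02 ± 0.18 (95% interval -0.40 to 0.44, adjusted p = 0.983; probe set 17280310, Entrez gene 15902). Of the 5 tested relatives of Tcf4 and Id2, Id3 alone was called. Id3, a further inhibitor of E proteins, was 6.53, 6.53 and 6.51 in spleen and 5.33, 5.62 and 5.25 in tumor, and fell by 1.12 ± 0.15 (adjusted p = 0.00226, called with each array left out in turn). Id1 stood at -0.17 ± 0.14 (adjusted p = 0.645) and Id4 at -0.03 ± 0.28. The E proteins Tcf3 (-0.45 ± 0.14, adjusted p = 0.0986) and Tcf12 (-0.43 ± 0.20, adjusted p = 0.272) were not called, but both were with the block (adjusted p = 0.00899 and 0.011). In this family of 7 helix-loop-helix genes 1 rose, Tcf4, 1 fell, Id3, and 5 were not called. That is 28.6% called, against 10.6% of all genes. With the block 1 rose and 3 fell, where 29.0% of all genes were called.

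Zbtb46, the zinc finger factor that marks conventional dendritic cells and their committed precursors, was higher on the tumor arrays. Its level was 6.67, 6.78 and 7.01 in spleen and 7.49, 7.91 and 7.74 in tumor. The groups were apart, and tumor array 2 was the highest. The difference was 0.89 ± 0.17 (1.85-fold) at an adjusted p = 0.012 on probe set 17395863 (Entrez gene 72147). The Zbtb46 call was lost without spleen 1, spleen 2 or tumor 2, with differences of 0.79 to 0.87 and adjusted p from 0.05 to 0.0627.

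Flt3, the receptor through which dendritic cell precursors grow, was not called. Its level was 6.75, 6.80 and 7.13 in spleen and 6.86, 6.87 and 7.22 in tumor. The ranges overlapped, and the third array of each group was the highest. The difference was 0.09 ± 0.17 (95% interval -0.31 to 0.49, adjusted p = 0.895; probe set 17455319, Entrez gene 14255). Flt3l, its ligand, has no probe set of its own here. Of the 14 tested genes of the FLT3 signalling list 2 rose and 12 were not called (14.3% called, near the 10.6% of all genes). Those that rose were the transcription factors Stat5a (0.78 ± 0.15, limma adjusted p = 0.0106) and Stat3 (0.65 ± 0.16, adjusted p = 0.0359). With the block 3 were higher and 2 lower, where 29.0% of all genes were called. Leaving out spleen 1 or tumor 1 ended the call of Stat5a (adjusted p up to 0.0565), and leaving out any array but spleen 3 that of Stat3 (up to 0.153). Csf1r, the growth factor receptor that monocytes and macrophages live on, fell by 0.57 ± 0.15 from 11.39 ± 0.13 (adjusted p = 0.0428), and lost the call with any array but tumor 3 left out (adjusted p up to 0.173). Csf2ra, a chain of the GM-CSF receptor, lay between 11.16 and 11.96 on the 6 arrays (-0.26 ± 0.21, adjusted p = 0.602).

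Other transcription factors of conventional dendritic cells were mostly not called. Batf3, which cDC1 need, lay between 7.01 and 7.56 in spleen and between 7.10 and 7.71 in tumor (difference 0.04 ± 0.22, adjusted p = 0.972). Irf8, which cDC1 and pDC share with monocyte precursors, stood at 0.45 ± 0.20 (adjusted p = 0.234, and 0.00837 with the block), Irf4 of cDC2 at 0.16 ± 0.22, and Relb at 0.20 ± 0.20. Zfp366, which encodes DC-SCRIPT, stood at 1.05 ± 0.34 (adjusted p = 0.0969, and 0.000375 with the block). The whole list of dendritic cell factors also holds pDC factors and Tcf4, Zbtb46 and Id2. It had 5 of 20 tested genes higher and 2 lower (35% called, against 10.6% of all genes), with a median of 0.26. With the block 9 were higher and 3 lower, where 29.0% of all genes were called. Leaving out Tcf4, Zbtb46 and Id2, 3 of 17 rose and 2 fell, with a median of 0.23. Those 3 were Stat5a (0.78 ± 0.15), Stat3 (0.65 ± 0.16) and Ikzf1 (0.87 ± 0.23, limma adjusted p = 0.0487). The 2 that fell were Spib and Cbfa2t3. Cbfa2t3, a corepressor of dendritic cell progenitors, fell by 0.78 ± 0.20 (adjusted p = 0.039), a call lost with any array but tumor 3 left out (adjusted p up to 0.169). Without spleen 1, spleen 2 or tumor 1 the rises in the whole list numbered 1, 2 and 2. Those among all genes went from 1057 to 681, 662 and 718.

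Xcr1, the chemokine receptor that defines cDC1, was dim in both groups. Its level was 4.57, 4.33 and 4.89 in spleen and 4.26, 4.37 and 4.27 in tumor, and the ranges overlapped. The difference was -0.29 ± 0.17 (95% interval -0.69 to 0.11, adjusted p = 0.431; probe set 17532564, Entrez gene 23832). On each array between 4.52 and 10.0% of the receptor genes of smell and pheromone sensing were as bright or brighter, and at such levels background limits the size of a difference. Xcl1, the chemokine that XCR1 reads, lay between 4.18 and 4.69 (difference -0.06 ± 0.17).

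The cDC1 list around Xcr1 had 2 of 23 tested genes higher, 2 lower and 19 not called, with a median of 0.02. Its share called was 17.4%, beside 10.6% of all genes. With the block 6 were higher and 5 lower, where 29.0% of all genes were called. The RNA sensor Tlr3 rose from 7.12 ± 0.23 to 10.75 ± 0.19 (3.63 ± 0.18, adjusted p = 7.33e-06) and Ifi205, a DNA-sensor family gene, by 5.96 ± 0.17 (adjusted p = 1.33e-06). Both are interferon-inducible in many cell types. Rab7b, a regulator of endosome traffic, fell by 0.66 ± 0.16 and Naaa, a lysosomal amidase, by 0.54 ± 0.13 (adjusted p = 0.0348 and 0.0363). Rab7b and Naaa each lost the call with any array but tumor 3 left out (adjusted p up to 0.157). The adhesion gene Cadm1, typical of cDC1, lay between 4.16 and 4.72 on the 6 arrays (difference -0.10 ± 0.18), dim as well.

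Cd209a, which encodes a DC-SIGN homologue found on monocyte-derived dendritic cells and on part of cDC2, was bright in both groups. Its level was 9.23, 9.51 and 9.0 in spleen and 9.10, 8.80 and 8.59 in tumor. Tumor array 1 lay above spleen array 3, so the ranges overlapped, although each tumor array was below the spleen array of its number. The difference was -0.41 ± 0.19 (95% interval -0.86 to 0.03, adjusted p = 0.278; probe set 17507171, Entrez gene 170786), and it was called with the sample number as a block (adjusted p = 0.0438). The gene's other, dimmer probe set read 5.50, 5.57 and 6.47 in spleen and 4.98, 5.05 and 4.86 in tumor. There the groups did not overlap, at -0.88, and with the mean of both probe sets Cd209a was called at -0.65 (adjusted p = 0.0407).

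Relatives of Cd209a gave 1 call among the 3 tested, where 10.6% of all genes were called. Cd209c was 5.71, 5.71 and 5.99 in spleen and 6.98, 6.45 and 7.77 in tumor, a rise of 1.26 ± 0.30 (adjusted p = 0.033) that was lost without spleen 1, spleen 2 or tumor 1 (adjusted p at most 0.107) and also among arrays 1 and 2 (adjusted p = 0.0628). Cd209d (-0.12 ± 0.20) and Cd209g (-0.28 ± 0.19) lay between 3.55 and 4.51, and Cd209b and Cd209e were too dim to be tested. The sequences of this family are alike, so its probe sets may read each other's transcripts.

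Genes of cDC2 went down where they were called. Of 20 tested genes of that list 0 rose, 5 fell and 15 were not called, with a median of 0.05. The share that fell was 25%, against 4.85% of all genes called lower. At an unadjusted p under 0.05 limma gave 0 higher and 5 lower. With the block 2 rose and 7 fell, where 29.0% of all genes were called. Cyclic loess (2) and quantile normalization (1) also gave rises. Ltb, the lymphotoxin beta gene, fell by 1.52 ± 0.16 (from 8.33 ± 0.07 to 6.81 ± 0.24, adjusted p = 6.07e-04), Cd7 by 1.28 ± 0.15 (adjusted p = 9.68e-04) and Itgam by 0.85 ± 0.17 (adjusted p = 0.015, lost without spleen 2, tumor 1 or tumor 2, at most 0.0801). Without spleen 1 or 2 the cDC2 list kept 3 falls, and without tumor 1 or 2 it kept 2. Falls among all genes went from 895 to 466 and 369, and to 293 and 443.

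Dpp4, the surface peptidase CD26, which trims chemokines and binds adenosine deaminase and which marks dendritic cells against macrophages, was higher on the tumor arrays. Its level was 8.29, 8.30 and 8.70 in spleen and 9.34, 8.97 and 9.59 in tumor. All tumor values lay above all spleen values. The difference was 0.87 ± 0.20 (1.83-fold) at an adjusted p = 0.0292 on probe set 17385719 (Entrez gene 13482). The Dpp4 call was lost without spleen 1, spleen 2, tumor 1 or tumor 3, with differences of 0.73 to 0.85 and adjusted p from 0.062 to 0.12.

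Among the genes around Dpp4, 2 chemokines that it is known to trim, Cxcl10 and Cxcl9, differed by 6.24 ± 0.27 and 5.06 ± 0.26 (adjusted p = 3.72e-06 and 8.81e-06). Ada, which encodes adenosine deaminase, stood at -0.21 ± 0.18 (adjusted p = 0.66). The family of 8 genes holds, besides peptidases, Dpp6 and Dpp10, without peptidase activity. Of these 8, 2 rose, Dpp4 and Fap, 1 fell, Prep, and 5 were not called. That is 37.5% called, against 10.6% of all genes. Fap was dim in spleen (3.84 to 4.13) and uneven in tumor (5.02, 4.77 and 6.13), a rise of 1.30 ± 0.32 (adjusted p = 0.0374). Prep fell by 0.69 ± 0.17 (adjusted p = 0.0361). Fap lost the call without any 1 spleen array or tumor 1, and Prep with any array but tumor 3 left out (adjusted p up to 0.151). The relatives within the cell, Dpp8 (-0.08 ± 0.18) and Dpp9 (-0.05 ± 0.13), and lysosomal Dpp7 (-0.68 ± 0.30, adjusted p = 0.241, and 0.00166 with the block) were not called.

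The bases before the listed start sites of Zbtb46 and Dpp4, the called genes whose differences were alike, and of Id2, bright and not called, are shown. Each is the 250 bases before the start, 5′ to 3′ on the gene's strand, from RefSeq (GRCm38.p6): Zbtb46 at chr2:181424389-181424638, minus strand, Dpp4 at chr2:62412232-62412481, minus strand, and Id2 at chr12:25096093-25096342, minus strand. Capitals mark the motifs searched, on both strands: the E-box CANNTG, to which E proteins such as TCF4 bind, the PU.1 motif GAGGAAG, the AP-1 motif TGANTCA, the interferon response element (ISRE) and the NF-kB motif.
Zbtb46: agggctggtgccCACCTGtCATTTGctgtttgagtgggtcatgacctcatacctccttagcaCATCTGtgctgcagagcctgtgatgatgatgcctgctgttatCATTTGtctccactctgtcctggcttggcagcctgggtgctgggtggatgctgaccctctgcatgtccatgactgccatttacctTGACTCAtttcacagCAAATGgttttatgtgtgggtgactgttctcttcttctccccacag
Dpp4: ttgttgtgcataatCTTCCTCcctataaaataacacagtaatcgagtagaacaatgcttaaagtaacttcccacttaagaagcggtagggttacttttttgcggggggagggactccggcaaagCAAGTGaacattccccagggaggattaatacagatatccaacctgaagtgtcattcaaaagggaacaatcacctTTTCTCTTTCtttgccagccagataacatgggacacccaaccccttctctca
Id2: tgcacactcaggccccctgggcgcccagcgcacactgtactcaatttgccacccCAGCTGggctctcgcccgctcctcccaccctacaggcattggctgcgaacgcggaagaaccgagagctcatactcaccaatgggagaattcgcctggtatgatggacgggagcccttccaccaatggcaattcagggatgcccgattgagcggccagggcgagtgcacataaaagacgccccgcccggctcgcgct
Zbtb46 held 5 E-boxes and 1 AP-1 match, whose first base lies 61 bases before the start. Its window ends in a run rich in c and t followed by cag, as introns do, so it may lie before an internal exon. Whether its matches lie in a promoter was not tested. Dpp4 held 1 E-box, 1 PU.1 match and 1 interferon response element, which begins 52 bases before the start, and Id2 held 1 E-box. No marked matches overlapped. Among 32851 promoters of the same length 66.2% held an E-box, 2.98% the interferon response element, 10.6% the PU.1 motif, 6.75% the AP-1 motif and 1.41% the NF-kB motif. The windows of Flt3 and Xcr1 held 1 E-box each, that of Cd209a 2 and that of Fscn1 none of the 5 motifs. A match is a run of letters, not a measured binding site.

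Fscn1 encodes fascin, the actin-bundling protein behind the long processes of mature dendritic cells. Its level was 10.90, 10.96 and 11.03 in spleen and 11.40, 11.39 and 11.44 in tumor. The 2 groups did not overlap, and the SD within each was 0.06 and 0.03. The difference was 0.45 ± 0.13 (1.36-fold, 95% interval 0.14 to 0.75, adjusted p = 0.0758; probe set 17444267, Entrez gene 14086), which missed the threshold. Fscn1 was called with the block (adjusted p = 0.00838), and among arrays 1 and 2 alone (0.46, adjusted p = 0.025). In these settings 29.0% and 15.9% of all genes were called. With any 1 array left out Fscn1 was not called (limma adjusted p from 0.0794 to 0.255).

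Genes of dendritic cell maturation went up where they were called. Of 22 tested genes 12 rose (54.5%, against 5.73% of all genes called higher) and 0 fell. Limma had 18 higher and 0 lower at p under 0.05 without adjustment, a threshold for which no share of all genes is given. The median difference was 0.74, against -0.05 over all genes tested. Il15ra, which presents interleukin 15 (2.77 ± 0.14, adjusted p = 8.81e-06), the costimulatory receptor Cd40 (2.82 ± 0.19) and the survival gene Birc2 (1.41 ± 0.15) had the smallest p. Ccr7, the receptor that leads mature dendritic cells to lymph nodes, was 11.59, 11.64 and 11.46 in spleen and 12.14, 12.07 and 12.11 in tumor (0.54 ± 0.14, adjusted p = 0.0393, lost whichever array was left out, up to 0.158). Cd83 (0.21 ± 0.13, adjusted p = 0.477) and the chemokine Ccl22 (0.34 ± 0.14, adjusted p = 0.214) were bright and were not called. Without spleen 1, spleen 2 or tumor 1 the rises numbered 4, 4 and 6, while those among all genes went from 1057 to 681, 662 and 718. Many of these genes also answer to interferon or NF-kB in other myeloid cells.

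The list of genes shared by conventional dendritic cells had 8 of 28 tested genes higher, 2 lower and 18 not called, with a median of 0.25. Its share called was 35.7%, against 10.6% of all genes, and it holds Zbtb46, Flt3 and Dpp4. Leaving out these 3 genes, 6 of 25 rose and 2 fell, with a median of 0.09. Btla, an inhibitory receptor, rose from 5.16 ± 0.44 to 8.11 ± 0.36 (2.95 ± 0.26, adjusted p = 2.07e-04), Fgl2, a prothrombinase of the fibrinogen family, by 1.88 ± 0.20 (adjusted p = 5.2e-04) and the lysophospholipid receptor P2ry10 by 1.09 ± 0.16 (adjusted p = 0.00354). Itgax itself fell by 0.85 ± 0.16 (adjusted p = 0.00986, and 0.0594 without tumor 1). Kit, a growth factor receptor of progenitors, stood at -0.55 ± 0.31 (adjusted p = 0.397, and 0.00432 with the block). With the block this list had 12 higher and 8 lower, where 29.0% of all genes were called. Without spleen 1, spleen 2 or tumor 1 its rises numbered 4, 3 and 5, while those among all genes went from 1057 to 681, 662 and 718.

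**Figure D3:**
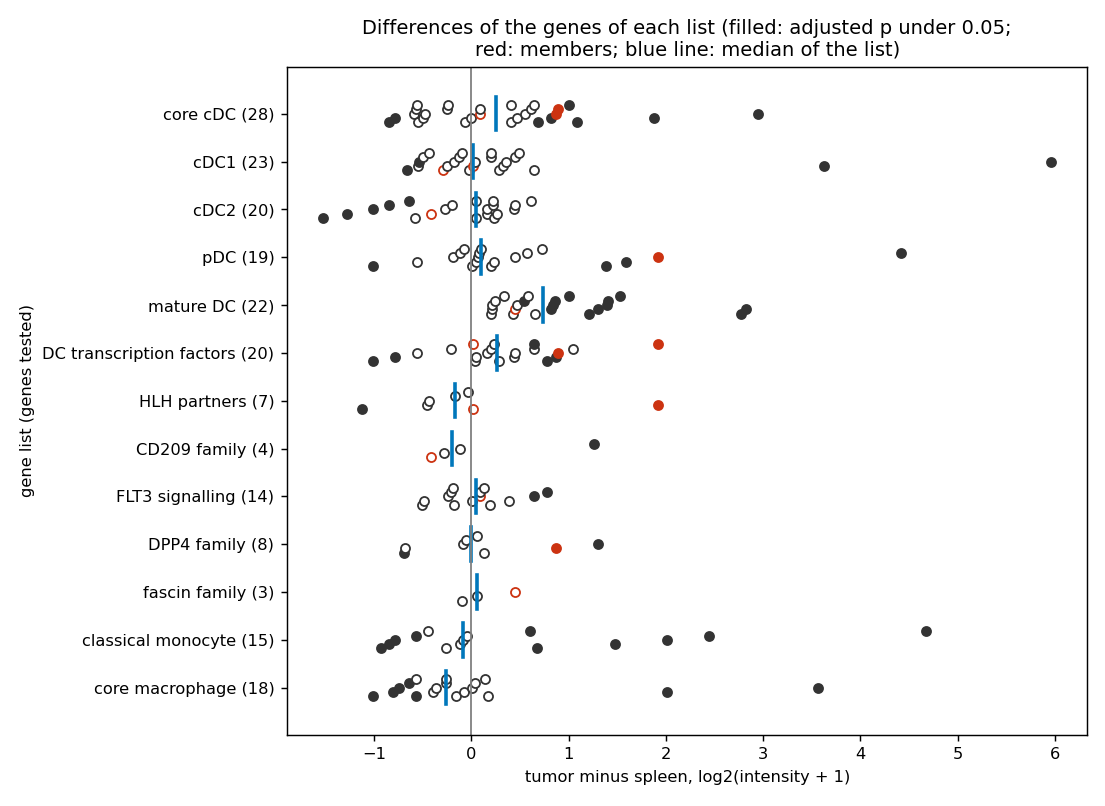
Each point is the difference, tumor minus spleen in log2(intensity + 1), of 1 tested gene; rows are gene lists with the number of genes tested, filled points were called, red points are the dendritic cell identity genes and blue lines are list medians. The maturation list has its median at 0.74 and no called gene below 0, while the cDC2 list has called genes only below 0.

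Genes of the neighbouring cell states moved as well. Of 15 tested classical monocyte genes 6 rose and 4 fell (66.7% called, against 10.6% of all genes). The mean level over that list lay between 8.12 and 8.35 on the spleen arrays and between 8.68 and 8.82 on the tumor arrays. Of 18 tested macrophage genes 2 rose and 5 fell (38.9% called), with a mean level between 8.56 and 8.85 in spleen and between 8.61 and 8.83 in tumor. Of the monocyte genes Ms4a4c (4.67 ± 0.17), Vcan (2.44 ± 0.16), Cd14 (2.01 ± 0.17), Ly6c2, Plac8 and Ly86 rose. Ccr2, Itgam, Fn1 and Csf1r fell. Of the macrophage genes Fcgr1 (3.56 ± 0.16) and Cd14 rose, and Camk1, C1qb, C1qc, C5ar2 and Csf1r fell, by 0.57 to 1.01. The receptor kinase Mertk, which marks macrophages against dendritic cells, lay between 9.71 and 10.39 on all 6 arrays (0.01 ± 0.23). The part of these cell states in the differences of the dendritic cell genes was not tested.

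From the highest to the lowest signed difference, the genes were Tcf4, then Zbtb46 and Dpp4, whose intervals (0.50 to 1.28 and 0.41 to 1.34) overlap almost wholly, then Fscn1, Flt3, Id2, Xcr1 and, lowest, Cd209a. The interval of Tcf4, 1.39 to 2.45, lay above those of all 7 others. Within arrays of equal number, Tcf4 differed by 1.92, 1.80 and 2.04, Zbtb46 by 0.82, 1.13 and 0.73 and Dpp4 by 1.05, 0.68 and 0.89, for numbers 1, 2 and 3. Fscn1 differed by 0.49, 0.43 and 0.42, Flt3 by 0.11, 0.07 and 0.09, and Cd209a by -0.13, -0.70 and -0.41. Each of these 6 genes thus kept 1 direction in all 3 numbers, while Id2 (0.13, -0.08 and 0.02) and Xcr1 (-0.30, 0.05 and -0.62) did not. The share of all genes that kept 1 direction was not counted, and the labels do not pair arrays by number. The count therefore says nothing particular about these genes.

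**Figure D4:**
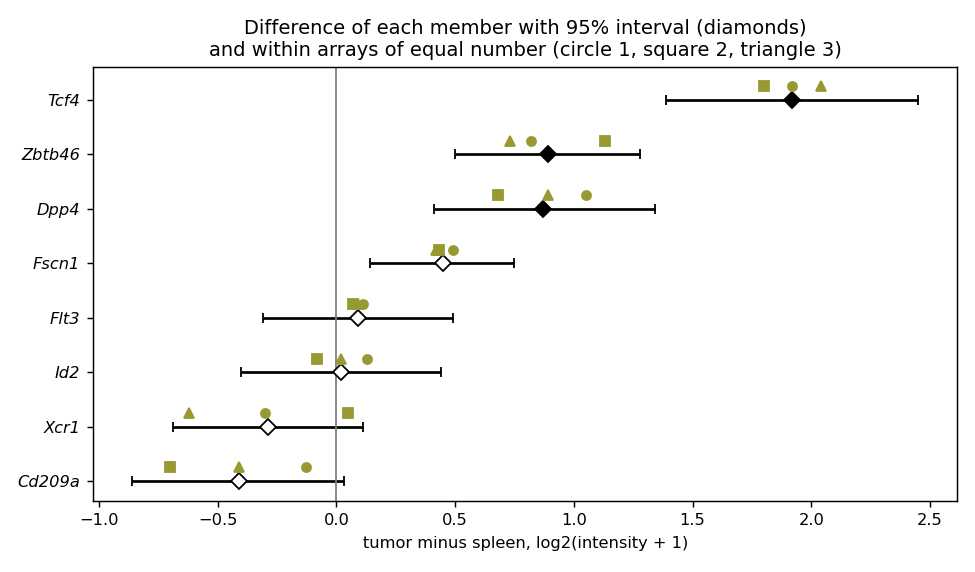
Diamonds are the differences, tumor minus spleen in log2(intensity + 1), with 95% intervals from limma (filled: adjusted p under 0.05), and circles, squares and triangles are the differences between the arrays numbered 1, 2 and 3. The 3 filled diamonds, Tcf4 at 1.92, Zbtb46 at 0.89 and Dpp4 at 0.87, lie to the right of the zero line with all their markers.

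Profiles over the 6 arrays were also compared after taking off each gene's own mean, by the root mean square distance to 171 other genes of the dendritic, monocyte and macrophage lists. Only these genes were candidates, so a neighbour from the lists was fixed in advance. Genes of like difference between the groups lie near each other by this measure, and shared regulation was not tested. Nearest to Zbtb46 was Pdcd1lg2, which encodes PD-L2 (distance 0.09), then Kmo (0.13). Nearest to Dpp4 was Ikzf1 (0.06), then Socs2 (0.10), and nearest to Fscn1 was Tmem123 (0.06), then Ccl22 (0.08). The nearest to Tcf4 were farther off, Fgl2 at 0.20 and Tlr7 at 0.27. Flt3 and Id2 were nearest to Fscn2 (0.05) and Dpp8 (0.06), none of them called, Xcr1 to Cadm1 (0.13) and Cd209a to Cd8a (0.17).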

How the data were processed

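The deposited intensities, 1 for each probe set on each array, are linear values that the authors made with RMA per the submitters' processing notes (no version given). Array medians of log2(intensity + 1) were 4.50 to 4.51 on the arrays numbered 1 and 2 and 4.73 and 4.76 on those numbered 3, so it is unknown whether 1 normalization covered all arrays. Of 41345 probe sets, 23521 carry 1 symbol, 1814 several and 16010 none. The 8 gene identifiers read were all in a RefSeq table (GRCm38.p6) with the same symbol. Genes entered the test when 3 or more arrays read them above the array's 25th percentile.

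The groups were set against each other with limma 3.58.1 (R 4.3.3) on log2(intensity + 1), which understates changes of dim genes, with group as the only term. The fit was also run on simulated data with independent noise on each array. The real arrays share deviations, so that run does not measure error rates here. An exact test of 3 against 3 cannot go below 0.1, and the number of arrays limits the precision. Across genes, deviations of equally numbered spleen and tumor arrays from their group mean correlated at 0.36, 0.44 and 0.71 for numbers 1 to 3. Spleen 1 and tumor 2 correlated at 0.46, so a pairing by number is clear for number 3 only. The number was also used as a block, which rests on these values and not on the labels. Calls with the block are a description and no independent support, since the same values led to its use. Genes named were the 8, the sort genes, partners fixed by role, and up to 3 called genes per direction and dendritic list. Bst2, Ccr9, Id4, Cadm1, Mertk, Cpa3, Hdc, Kdr, Mmp8, Mmp9 and Cd3g, outside that rule, were chosen after their values were seen. The called classical monocyte and macrophage genes were also named after their values were seen. The genes and lists were chosen with earlier results of these data known. Alternatives were normalization, pseudocount, filter, probe set mean, prior, array weights, block, threshold and arrays left out.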

Additional observations from a re-analysis of the deposited data

How the results depend on the processing

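With the replicate number as a block the count of called genes rose from 1952 to 5346, or from 10.6 to 29.0% of genes tested. Of the 8 dendritic cell genes it rose from 3 to 5, and of the dendritic lists together from 42 to 78. With array weights these were 7102, 5 and 90. Counts for the dendritic lists together carry no share of their tested genes, so they cannot be set against the share of all genes. Quantile normalization gave 3506 genes and 64 in the lists, and median centring 3289 and cyclic loess 3184 genes. Arrays 1 and 2 alone gave 2936 genes. The unmoderated fit gave 901 genes and 23 in the lists, and an adjusted p under 0.01 gave 961, 1 and 19. Leaving out 1 array gave 1011 to 1924 genes, 1 to 3 of the 8, and 20 to 39 in the lists. The share of calls higher in tumor, 54.1%, was 40.3% with the block, 40.4% with array weights and 71.0% without tumor 1. Tcf4 was called under all 20 alternatives with a test, Zbtb46 under 15 and Dpp4 under 14. Fscn1, not called as reported, was called under 9 and Cd209a under 3. Zbtb46 and Dpp4 were not called in the unmoderated fit (adjusted p = 0.0724 and 0.15). Differences ranged over 1.70 to 2.08 for Tcf4, 0.79 to 1.0 for Zbtb46, 0.73 to 1.04 for Dpp4, 0.40 to 0.51 for Fscn1 and -0.65 to -0.28 for Cd209a. With 1 array left out Flt3 ranged from -0.02 (without tumor 3) to 0.21, and Id2 from -0.10 (without tumor 3; -0.04 without spleen 1 or 2) to 0.15. Neither was called under any alternative, nor was Xcr1, which the 50th percentile filter left out. The causes of these shifts were not tested. The signal of Xcr1, near that of receptor genes of smell, limits what can be read from it.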
